A study of Rattus norvegicus with 100 samples.

Results

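The carnitine shuttle moves fatty acids to the place where they are burned, and 7 of its genes were followed here in primary rat hepatocytes given GW7647, a compound that activates PPARα, a nuclear receptor of lipid metabolism. They are Cpt1a, Cpt1b, Cpt2, Slc25a20, Crat, Crot and Slc22a5, taken as a list by name, and each is represented by the probe set that carries only its symbol and has the highest mean over all arrays. They are 7 of 13439 genes with such a probe set. All 7 were among the 8843 genes tested, which had a log2 intensity above 5 in at least 3 arrays, and all 7 lay above 5 in all 100 arrays.

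Long-chain fatty acids cannot cross the inner mitochondrial membrane as coenzyme A esters. Carnitine palmitoyltransferase 1 on the outer membrane turns them into acylcarnitines, the carrier encoded by Slc25a20 exchanges these for free carnitine, and carnitine palmitoyltransferase 2, encoded by Cpt2, turns them back into coenzyme A esters inside. The first step is inhibited by malonyl-CoA, the building block of fatty acid synthesis. It is carried out by the liver form CPT1A in hepatocytes and by the muscle form CPT1B in heart, skeletal muscle and brown fat. PPARα binds DNA together with the retinoid X receptor at direct repeats of a hexamer spaced by a single base and is activated in the liver during fasting.

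Hepatocytes from 4 rats (Rs627, Rs628, Rs631 and Rs632) were cultured on collagen under a matrix overlay and received GW7647 at 0, 0.001, 0.01, 0.1, 1 or 10 µM, and total RNA was taken after 2, 6, 12, 24 and 72 h. A group was one concentration at one time. The 30 groups had 2 to 4 arrays, each of another rat, so that replicates were separate animals. The untreated groups of the 5 times, in order, numbered 3, 4, 3, 3 and 4 arrays and the 1 µM groups 3, 4, 4, 4 and 4. Strain, sex and age of the rats and any solvent in the 0 µM cultures are not stated in the labels.

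All 9 hepatocyte markers of a fixed list passed the filter, and albumin had a median log2 intensity of 13.7. At 72 h and 1 µM, 3 of the 9 fell, Serpina1 by 0.877 (log2, limma adjusted p = 1.55e-08), Fgb by 0.864 (0.013) and Ttr by 0.279 (3.12e-07), and Apob rose by 0.48 (0.000278). The other 5, albumin among them, did not pass. Of all genes tested, 15.5% were called lower and 11.3% higher in this comparison. The summed linear intensity of the list was 45396 to 48150 in the untreated and 38162 to 42089 in the treated cultures at 72 h, without overlap, and its part in the changes of the shuttle genes at that time was not tested. The 75th percentile of an array ranged from 6.42 to 7.27 and lay under 6.6 in 5 arrays, 2 of which were the Rs631 and Rs632 arrays at 1 µM and 24 h. Arrays of a rat deviated together from their group means (median correlation 0.62, against -0.223 for arrays of different rats). The 12 h array at 0 µM labelled Rs627 went against its label, with a median correlation of -0.0167 with the other Rs627 arrays and 0.763 with those of Rs628, and the one labelled Rs628 had -0.218 with Rs628 and 0.513 with Rs627. These 2 arrays are 2 of the 3 untreated arrays at 12 h, and 12 h results are also given without them.

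Slc25a20 and Crat are the members whose promoter holds the closest match to the PPARα response element, so their promoters are shown here. The element searched, on both strands, was AGGTCANAGGTCA, which contains the half-site AGGTCA at either end, in the bases from 250 before to 50 after the start of transcription in RefSeq's rat genes (GRCr8). Of the 7 members, 6 had an entry in that table and Cpt1b had none. A match with at most 2 mismatches was found in 2 of these 6 promoters, and in 3.71% of all 27457 promoters. In the lines below the match is in capitals. Counted from the transcription start, it begins at position 16 in Slc25a20 (chr8:118243323-118243622, plus strand) and at position -223 in Crat (chr3:34087050-34087349, minus strand).
Slc25a20 promoter: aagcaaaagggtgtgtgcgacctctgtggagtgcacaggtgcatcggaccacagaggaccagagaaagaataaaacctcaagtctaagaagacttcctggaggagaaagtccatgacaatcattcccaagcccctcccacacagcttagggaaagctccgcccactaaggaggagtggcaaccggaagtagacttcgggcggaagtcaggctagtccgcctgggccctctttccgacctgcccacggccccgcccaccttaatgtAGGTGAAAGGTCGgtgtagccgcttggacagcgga
Crat promoter: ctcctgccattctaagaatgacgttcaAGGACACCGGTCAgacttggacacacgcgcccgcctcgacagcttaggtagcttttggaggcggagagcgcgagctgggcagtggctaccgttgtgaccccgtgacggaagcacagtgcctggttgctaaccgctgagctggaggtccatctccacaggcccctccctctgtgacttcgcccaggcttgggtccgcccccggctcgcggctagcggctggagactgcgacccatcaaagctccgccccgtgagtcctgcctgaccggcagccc
The best matches in Cpt1a, Cpt2 and Slc22a5 had 4 mismatches, which 79.5% of all promoters reach, and that in Crot had 5. None of the 6 promoters held the half-site itself, which 15.7% of all promoters hold. A match describes letters and not a bound site, and no match says only that these letters are not in this window.

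Exposure to 1 µM raised all 7 genes at 6, 12, 24 and 72 h, and no member was called lower in any of the 175 comparisons of a member with 0 µM at the same time (limma, Benjamini-Hochberg adjusted p under 0.05 over all 8843 genes of a comparison). In all, 89 of the 175 comparisons were called higher, and 108 with the rat as a term of the model. The increase was largest for Cpt1b, which at 72 h and 1 µM was 19.6 times its untreated level, followed by Crat at 10.47-fold. The others lay between 2.842-fold for Cpt2 and 4.365-fold for Slc22a5 at that time. Over the 5 times in order, 2, 7, 7, 7 and 7 of the 7 members were called higher at 1 µM, beside 0.351%, 1.73%, 3.96%, 7.06% and 11.3% of all genes. The median change of all genes was -0.227 (log2) at 24 h and between -0.063 and 0.012 at the other times, whereas the median member changed by 0.84, 1.62, 1.78, 1.95 and 1.84.

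**Figure D1:**
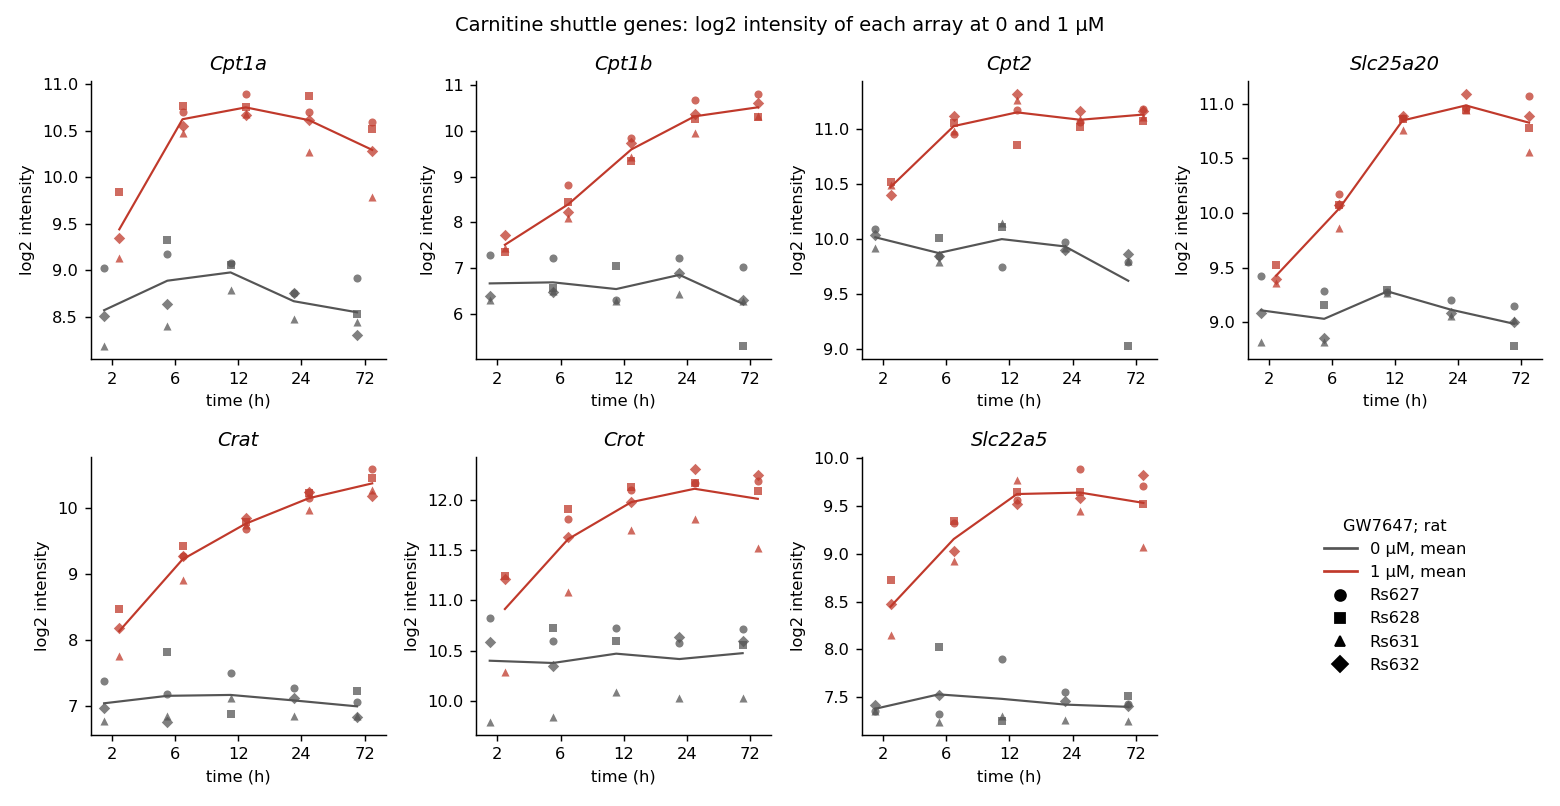
Log2 intensity of each gene (vertical axis, own scale per panel) against time in hours, with one point per array, a marker shape per rat and lines through the group means at 0 µM (grey) and 1 µM (red). From 6 h on the red points of every gene lie above all grey points. At 12, 24 and 72 h Cpt1b and Crat separate most.

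Cpt1a, the liver form of the first enzyme, had log2 values of 8.92, 8.53, 8.44 and 8.30 in the untreated Rs627, Rs628, Rs631 and Rs632 cultures at 72 h. At 1 µM the same rats gave 10.59, 10.52, 9.79 and 10.28. The lowest treated array, that of Rs631, was 0.87 above the highest untreated one. The change was 1.75 (log2, SE 0.24), or 3.36-fold, with a limma adjusted p of 1.49e-08 and a higher value in 4 of 4 rats. At 6 h the untreated cultures had 9.18, 9.33, 8.40 and 8.64 and the treated ones 10.70, 10.77, 10.48 and 10.55. The treated cultures were thus already apart at 6 h, with a change of 1.74 (SE 0.24, adjusted p = 1.24e-07), and the changes at 12 and 24 h were 1.78 and 1.95. At 2 h the change was 0.87 and was not called (adjusted p = 0.379), but was called with the rat as a term (0.00163).

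Cpt1b, the muscle form, had 7.02, 5.29, 6.28 and 6.30 in the untreated Rs627, Rs628, Rs631 and Rs632 cultures at 72 h, and 10.81, 10.31, 10.32 and 10.61 at 1 µM. No treated array came within 3.29 of the highest untreated one, and the untreated Rs628 array was the lowest. The change was 4.29 (log2, SE 0.35, adjusted p = 4.28e-17), higher in 4 of 4 rats. At 6 h the untreated values were 7.22, 6.57, 6.50 and 6.47 and the treated ones 8.81, 8.44, 8.09 and 8.23. The groups did not overlap, and the change of 1.70 (SE 0.35, adjusted p = 0.000633) was less than that at 72 h. Without rat Rs632 the call at 6 h was lost (1.68, adjusted p = 0.0658). The change was 3.05 at 12 h and 3.46 at 24 h, where treated arrays of 9.95 to 10.68 stood against untreated ones of 6.44 to 7.22. At 2 h it was 0.84, not called (adjusted p = 1) unless the rat was a term (0.011).

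Markers of other cells were examined beside Cpt1b. Of 15 striated muscle markers on a fixed list 12 were measured, and 7 of these were at or under log2 5 in all 100 arrays, namely creatine kinase Ckm, myosin light chain Myl1, troponins Tnnt3 and Tnni2, myoglobin Mb, desmin Des and actinin Actn2. The cardiac myosin Myh6 was above 5 in 66 arrays (at most 7.6), cardiac troponin Tnnt2 in 40 (6.16), the myosin Myh7 in 10 (7.02) and the calcium channel Ryr1 in 2 (5.03). At 72 h and 1 µM Myh6 changed by 0.215, Tnnt2 by -0.253 and Myh7 by -0.16, none of them called (limma adjusted p 0.677 to 0.825). Skeletal actin, Acta1, was above 5 in 97 arrays (median 9.06) and ranged from 3.58 to 12.3. It fell by 3.82 at 72 h and 1 µM (limma adjusted p = 0.0162). The summed linear intensity of the list was then 357 to 4018 in the untreated and 213 to 530 in the treated cultures. Of the 6 fat cell markers, adiponectin Adipoq, leptin Lep and perilipin Plin1 were under 5 in all arrays. The lipase Lpl was above 5 in 70 arrays (at most 8.19) and the uncoupling protein Ucp1 in 2 (5.39). Lpl changed by 0.991 at 72 h and 1 µM and was not called (limma adjusted p = 0.309). Cidea, a lipid droplet protein on the same list, was above 5 in all 100 arrays and rose by 1.80 (log2) at 72 h (limma adjusted p = 2.69e-11), and the summed intensity of the list was 1200 to 1884 untreated and 4641 to 5379 treated. For macrophages 5 of 6 measured markers were at or under 5 in all arrays, and for endothelium 4 of 4. For stellate cells and fibroblasts the count was 3 of 8, and for bile duct 1 of 4. Epcam of the bile duct list was above 5 in 100 arrays, and Col3a1 and Acta2 of the fibroblast list in 99 and 97. The part of all these markers in the change of Cpt1b was not tested. Cpt1c, the form of CPT1 known from brain, was above 5 in 5 arrays, at most 5.48, and changed by 0.44 (log2, adjusted p = 0.112) at 24 h.

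The responses of both CPT1 forms were compared through the difference Cpt1b minus Cpt1a within each array. The difference itself mixes 2 probe sets and has no meaning at 0, but its shift from 0 µM is the log2 ratio of the 2 fold changes. At 72 h the difference ranged from -3.24 to -1.90 in the untreated arrays and from -0.21 to 0.53 at 1 µM, a shift of 2.54, so that the fold of Cpt1b was 5.832 times that of Cpt1a. The shift was 2.13 in Rs627, 3.04 in Rs628, 2.69 in Rs631 and 2.33 in Rs632. All 4 rats moved the same way, and no treated array overlapped the untreated ones.

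The shift was -0.03 at 2 h (exact permutation p = 1, smallest possible 0.1) and -0.04 at 6 h (exact permutation p = 0.914), with 0.07, 0.43, -0.49 and -0.16 in the 4 rats at 6 h. At 2 h the groups held different rats, with Rs627 only in the untreated and Rs628 only in the treated one. Rs631 and Rs632, which had both arrays, shifted by 0.18 and 0.49 at 2 h. At 1 µM the shift was 1.27 at 12 h, 1.51 at 24 h and 2.54 at 72 h. Each had an exact two-sided permutation p of 0.0286, the smallest that these group sizes allow, or 0.0476 after Benjamini-Hochberg adjustment over the 10 shifts tested. The shift at 12 h was 1.34 without the 2 untreated arrays that went against their rat labels, with an exact permutation test that can no longer reach the threshold. Leaving out a rat gave 1.06 to 1.56 at 12 h, 1.41 to 1.62 at 24 h and 2.38 to 2.68 at 72 h, likewise too few arrays for the exact test to pass (adjusted p 0.143 to 0.167). Averaged over the times, the shift was 0.09 at 0.001 µM, 0.14 at 0.01 µM, 0.95 at 0.1 µM, 1.05 at 1 µM and 0.99 at 10 µM. The last 3 passed the permutation test within times (adjusted p 0.00065, 0.0003 and 0.00117) and the first 2 did not (0.696 and 0.528). This test exchanged the arrays of a time as separate units. The same 4 rats recur over the times, so its p values do not measure the spread between rats. Between 6 and 72 h at 1 µM the shift grew by 2.58 (SD 0.46, n = 4 rats), upward in 4 of 4 rats, and the exact sign-flip p of 0.125 is the smallest that 4 rats allow.

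**Figure D2:**
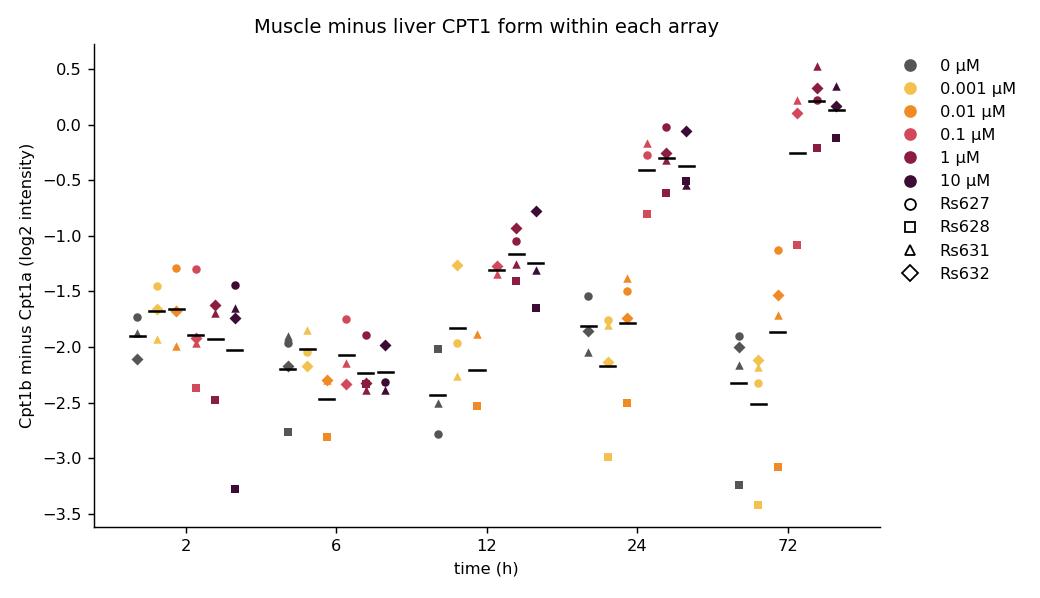
Cpt1b minus Cpt1a in log2 intensity (vertical axis) for each array, against time in hours, coloured by concentration with a marker per rat and black bars at group means. The 1 µM means go from -1.94 at 2 h to 0.22 at 72 h while the 0 µM means lie between -2.44 and -1.81, and 0 on this axis has no meaning because the probe sets differ.

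In percent of the 72 h change at 1 µM, Cpt1a had reached 99.6% at 6 h and 111.5% at 24 h, and Cpt1b 39.7% at 6 h, 71.1% at 12 h and 80.6% at 24 h. Crat and Slc25a20 lay between these forms at 6 h, with 61.1% and 55%, and Cpt2, Crot and Slc22a5 had 76.8%, 80.1% and 76.3%. These percentages carry the error of both changes and are a description. They also move with the untreated level. From 24 to 72 h the mean of Cpt1b at 1 µM went from 10.32 to 10.51 and the untreated mean from 6.85 to 6.22. The lowest untreated 72 h array, 5.29, was of Rs628, which had no untreated array at 24 h.

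The growth of the change itself was tested at 1 µM as the change at 24 h minus that at 2 h. It passed for 4 of 7 members, against 1.93% of all genes, and for 7 of 7 with the rat as a term, against 4.84%. It was 2.62 for Cpt1b (SE 0.55, limma adjusted p = 0.00105), 1.98 for Crat (2.69e-06), 1.55 for Slc25a20 (7.19e-09) and 1.15 for Slc22a5 (0.0147), and 1.08 for Cpt1a, which did not pass (0.0794; 0.00373 with the rat). Leaving out Rs631 or Rs632 took the adjusted p of Cpt1b to 0.0526 and 0.0532, and leaving out Rs627, Rs631 or Rs632 took that of Slc22a5 to 0.0814, 0.0699 and 0.254. From 24 to 72 h no member passed, at 0.0113% of all genes called, and 0 members had an unadjusted p under 0.05. The largest such difference was 0.83 for Cpt1b, with a 95% interval from -0.19 to 1.85.

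**Figure D3:**
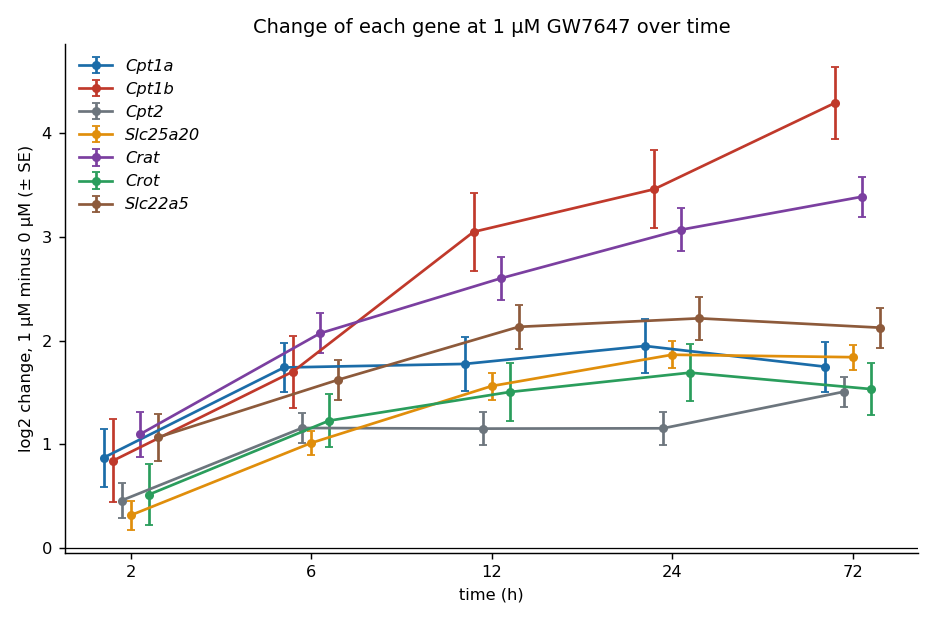
Log2 change of each gene at 1 µM from 0 µM of the same time (vertical axis, mean with the SE of the limma model) against time in hours, one colour per gene. Cpt1b rises from 0.84 at 2 h to 4.29 at 72 h and Crat from 1.09 to 3.39, while Cpt1a lies between 1.74 and 1.95 from 6 h on.

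Slc22a5 encodes the sodium-dependent transporter that brings carnitine into the cell. At 2 h it had 7.36, 7.36 and 7.42 in the untreated Rs627, Rs631 and Rs632 cultures, and 8.72, 8.15 and 8.47 in the Rs628, Rs631 and Rs632 cultures at 1 µM. All treated arrays lay at least 0.73 above the untreated ones at this first time. The change of 1.07 (log2, SE 0.22, limma adjusted p = 0.00477) and that of Crat were the 2 calls among the members at 2 h and 1 µM. The call of Slc22a5 at 2 h was lost without Rs627 (adjusted p = 0.0595), Rs628 (0.125) or Rs632 (0.446). At the 4 later times its change was 1.62, 2.13, 2.22 and 2.13. At 72 h treated values of 9.71, 9.52, 9.07 and 9.82 stood against 7.43, 7.51, 7.25 and 7.41 (adjusted p = 8.61e-15).

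Slc25a20, the exchanger of the inner membrane, had the smallest standard error of the members. At 24 h the untreated Rs627, Rs631 and Rs632 cultures had 9.20, 9.06 and 9.09, and the 4 cultures at 1 µM had 10.96, 10.94, 10.94 and 11.09. The distance of at least 1.73 between the groups compared with SDs of 0.08 and 0.07. The change was 1.86 (log2, SE 0.13), or 3.641-fold (limma adjusted p = 5.52e-20). It was 0.31 at 2 h, where the groups overlapped (not called, adjusted p = 1; 0.0199 with the rat as a term), 1.01 at 6 h, 1.56 at 12 h and 1.84 at 72 h.

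Cpt2, the enzyme at the inner end of the shuttle, had the smallest change of the 7 at 12, 24 and 72 h at 1 µM, and Slc25a20 had the smallest at 2 and 6 h. Untreated values at 72 h were 9.79, 9.02, 9.80 and 9.86 and those at 1 µM 11.18, 11.07, 11.11 and 11.16. The groups did not overlap, and among the untreated cultures Rs628 was low. The change of 1.51 (log2, SE 0.15, limma adjusted p = 1.12e-13) compared with 1.16, 1.15 and 1.15 at 6, 12 and 24 h and 0.46 at 2 h (not called, adjusted p = 0.906; 0.0295 with the rat as a term).

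Crat encodes the acetyltransferase that passes short acyl groups between coenzyme A and carnitine in mitochondria and peroxisomes. Its values at 72 h were 7.06, 7.22, 6.85 and 6.83 untreated and 10.59, 10.46, 10.28 and 10.18 at 1 µM. The groups were 2.96 apart at their nearest arrays. The change of 3.39 (log2, SE 0.19) had a limma adjusted p of 4.51e-25, the smallest among the members at that time. At 2 h untreated arrays of 7.37, 6.77 and 6.97 stood against 8.47, 7.75 and 8.18 at 1 µM. The change of 1.09 (SE 0.22, adjusted p = 0.00259) was called, but not without Rs628 (0.0826) or Rs632 (0.364).

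Crot encodes the octanoyltransferase of peroxisomes, which hands medium-chain products of peroxisomal oxidation on as acylcarnitines. At 72 h it had 10.71, 10.56, 10.03 and 10.60 in the untreated Rs627, Rs628, Rs631 and Rs632 cultures and 12.18, 12.09, 11.52 and 12.24 at 1 µM. Rs631 was the lowest in both groups. The change was 1.53 (log2, SE 0.26, limma adjusted p = 1.64e-06), and 1.23, 1.505 and 1.69 at 6, 12 and 24 h. At 2 h the groups overlapped, and the change of 0.51 was not called (adjusted p = 1; 0.0143 with the rat as a term). The call at 6 h was lost without Rs632 (1.21, adjusted p = 0.0682).

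Rats differed in their level of some members more than of others. Outside the untreated 12 h group, Rs631 had the lowest Crot of its group in 28 of 29 groups, on average 0.41 below the group mean (log2, SD 0.16). Rs627 had the highest Cpt1b in 19 of 21 groups (0.55 above the mean, SD 0.25) and the highest Slc25a20 in 19 of 21 (0.19, SD 0.10), and Rs628 the lowest Cpt1b in 14 of 20 groups (0.36 below, SD 0.37) and the lowest Cpt2 in 15 of 20. These are ranks among 2 to 4 arrays and are given as a description.

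At 24 h and 1 µM, where 2 of 4 arrays had low signal, the changes without the low-signal arrays were 2.12 for Cpt1a, 3.62 for Cpt1b, 1.11 for Cpt2, 1.83 for Slc25a20, 3.11 for Crat, 1.74 for Crot and 2.34 for Slc22a5, and all 7 passed the limma test. At 12 h, without the 2 untreated arrays that went against their labels, the changes at 1 µM were 1.962 for Cpt1a, 3.306 for Cpt1b, 1.004 for Cpt2, 1.575 for Slc25a20, 2.642 for Crat, 1.883 for Crot and 2.316 for Slc22a5, and all 7 passed although 1 untreated array then remained, whose spread is taken from the other groups. At 72 h the 3′ minus 5′ signal of β-actin, a measure of RNA quality, was 1.66 (SD 0.185) untreated and 1.97 (SD 0.147) at 1 µM, and its part in the changes was not tested.

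Across concentrations, calls were few at 0.01 µM and most were made from 0.1 µM on. At 0.001 µM none of the 35 comparisons (7 members, 5 times) was called by limma, 0 had an unadjusted p under 0.05, and 0% of all genes were called higher at each of the 5 times. At 0.01 µM there were 3 calls of 35. They were Slc25a20 at 24 h (0.55, adjusted p = 0.0491) and 72 h (0.49, 0.0328) and Crat at 24 h (0.91, 0.0363), and leaving out Rs627 left 1 call of the 35, and leaving out any other rat 0. The members called at 2, 6, 12, 24 and 72 h numbered 0, 0, 0, 2 and 1, beside 0.0113%, 0%, 0.0339%, 0.136% and 0.396% of all genes. An unadjusted p under 0.05 was found for 0, 4, 3, 3 and 4 members, and upward for 30, 50, 89, 99 and 324 of all 8843 genes. With the rat as a term there were 9 calls of 35, numbering 0, 1, 2, 2 and 4, beside 0.0226%, 0.113%, 0.192%, 0.407% and 1.3% of all genes. The 6 added were Crat at 6 h (0.0159), 12 h (0.00113) and 72 h (0.00535), Slc25a20 at 12 h (0.00125), and Cpt1b (0.0229) and Cpt2 (0.0366) at 72 h. The 12 h calls of Crat and Slc25a20 relied on the untreated 12 h arrays that went against their rat labels. Without those arrays, which left 1 untreated array at 12 h, they were not made in that model.

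At 0.1 µM there were 26 calls of 35, numbering 0, 6, 6, 7 and 7 at the 5 times, beside 0.147%, 0.882%, 1.47%, 2.96% and 4% of all genes. Crot was the member not called at 6 and 12 h (adjusted p = 0.0879 and 0.0594, and 6.94e-09 and 5.28e-10 with the rat as a term). At 2 h 4 members had an unadjusted p under 0.05, beside 96 of all 8843 genes upward. Crat (0.82, adjusted p = 0.0733) was called at 2 h with the rat as a term (0.00577), which made 29 calls of 35 in all. In that model 0.317%, 1.59%, 2.93%, 6.47% and 8.36% of all genes were called higher at the 5 times. Several of the 26 calls rested on few rats. Leaving out Rs632 ended those of Cpt1b at 6 h (adjusted p = 0.285) and 12 h (0.0682), of Cpt1a at 12 h (0.163) and 72 h (0.139), and of Crot (0.352) and Slc22a5 (0.104) at 72 h. Leaving out Rs631 ended those of Cpt1b at 6 h (0.454) and of Cpt1a (0.502), Cpt1b (0.265) and Cpt2 (0.123) at 12 h. Leaving out Rs628 ended those of Cpt1a (0.171) and Crot (0.152) at 72 h, and leaving out Rs627 those of Crot at 24 h (0.0633) and 72 h (0.0563). Without the 2 untreated 12 h arrays that went against their labels, Cpt1a (0.141) and Cpt2 (0.154) were not called at 12 h.

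At 10 µM there were 30 calls of 35, numbering 2, 7, 7, 7 and 7, beside 0.498%, 1.56%, 5.55%, 6.43% and 12.5% of all genes, and the 2 at 2 h were again Crat (1.12, adjusted p = 0.000335) and Slc22a5 (0.92, 0.00795). The call of Slc22a5 was lost without Rs627 (0.282) or Rs632 (0.302). At 6 h, that of Cpt1b was lost without Rs632 (0.0909) and that of Crot without Rs627 (0.0639) or Rs632 (0.0943). At 1 and at 10 µM the rat term took the calls from 30 to 35, adding Cpt1a, Cpt1b, Cpt2, Slc25a20 and Crot at 2 h. With that term 0.746% of all genes were called higher at 2 h and 1 µM, and 1.09% at 2 h and 10 µM.

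The untreated 72 h values above were the controls for each concentration at that time, so the following changes share them. Cpt1b was 0.9138, 1.858, 8.592, 19.6 and 22.6 times its untreated level from 0.001 to 10 µM, and the last 3 were called, or the last 4 with the rat as a term (adjusted p = 0.0229 at 0.01 µM, higher in 4 of 4 rats). Cpt1a was 1.041, 1.348, 2.037, 3.36 and 4.115 times its own, and its last 3 were called in either model. Of its change at 10 µM, Cpt1a had 50.3% at 0.1 µM and Cpt1b 69%, and all members had between 44.2% (Slc22a5) and 69%. At 1 µM and 72 h the share was 85.7% for Cpt1a, 88.5% for Slc22a5 and at most 95.4%, for Cpt1b. At 24 h it was 67.9% to 83.1% at 0.1 µM and 92.5% to 100.7% at 1 µM.

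**Figure D4:**
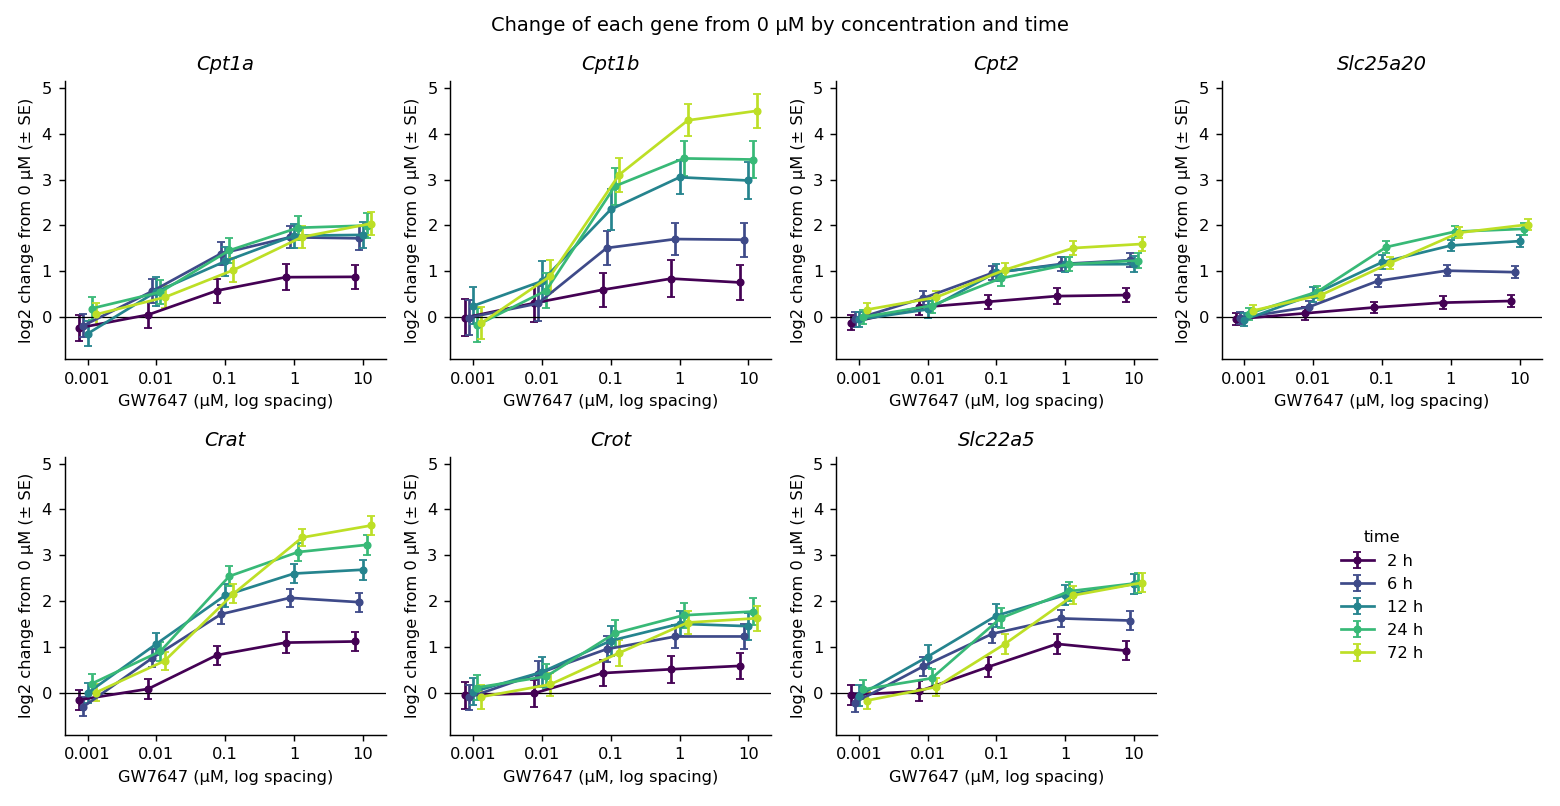
Log2 change from 0 µM of the same time (vertical axis, with the SE of the limma model, same scale in all panels) against GW7647 concentration on a logarithmic axis, one line per time. Changes lie near 0 at 0.001 µM, climb to 1 µM and differ little between 1 and 10 µM. At 10 µM and 72 h Crat reaches 3.65 and Cpt2 1.60.

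Neighbouring concentrations were compared as means over the 5 times. From 0 to 0.001 µM none of the 7 members was called by limma (0% of all genes, 0 members with an unadjusted p under 0.05). From 0.001 to 0.01 µM 5 of 7 were called, beside 0.633% of all genes, led by Crat with 0.75 (log2, SE 0.10, adjusted p = 3.13e-08). Cpt1b (0.59, adjusted p = 0.149) and Crot (0.30, adjusted p = 1) did not pass unless the rat was a term, when 1.48% of all genes were called higher. Without Rs632 only 1 of the 7 passed this step, and without Rs628 3 did.

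From 0.01 to 0.1 µM all 7 were called, beside 3.22% of all genes, with 1.51 for Cpt1b (SE 0.18, adjusted p = 1.27e-09), 1.17 for Crat and 0.53 to 0.88 for the others. This was the largest step of each member, and that of Crot was not called without Rs632 (adjusted p = 0.142). From 0.1 to 1 µM 4 of 7 were called, beside 0.848% of all genes, and all 7 with the rat as a term, beside 2.5%. The 4 were Slc22a5 (0.59, limma adjusted p = 3.43e-05), Crat (0.57, 4.1e-05), Cpt1a (0.48, 0.0187) and Slc25a20 (0.34, 0.000147). Without Rs632 2 of the 7 passed, with Cpt1a (adjusted p = 0.372) and Slc25a20 (0.094) among those lost, and Cpt1a was also lost without Rs628 (0.089) or Rs631 (0.118).

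From 1 to 10 µM none was called (0% of all genes, 0 members with an unadjusted p under 0.05, 0 with the rat as a term). The differences lay between 0.00 for Cpt1b (95% interval -0.33 to 0.34) and 0.10 for Slc22a5 (-0.09 to 0.29). These intervals leave room for a difference of up to 0.34 in Cpt1b.

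Without the agent no change with time in culture was called. From 2 to 24 h at 0 µM none of the 7 was called in either direction, beside 1.41% of all genes, and from 24 to 72 h none was called, beside 0%. No member had an unadjusted p under 0.05 in either comparison. The differences from 24 to 72 h ran from -0.63 for Cpt1b (95% interval -1.38 to 0.11) to 0.06 for Crot. The lowest of the 72 h arrays of Cpt1b, 5.29, was of Rs628, a rat with no untreated 24 h array.

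Other probe sets of the same genes moved the same way. A second set of Cpt1a, of lower mean intensity (5.8), changed by 1.69, 2.19 and 1.89 at 6, 24 and 72 h at 1 µM, and a second set of Crot (mean 8.81) by 1.73, 3.03 and 2.51, more than the 1.23, 1.69 and 1.53 of the set used. The remaining set of Crot did not pass the filter. The size of the Crot change thus depended on the probe set, and Cpt1b, Cpt2, Slc25a20, Crat and Slc22a5 had a single set.

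Likeness between genes was measured by Pearson correlation over the 30 group means, which share arrays, concentrations and times, and is a description. Pearson correlations between pairs ran from 0.883 for Cpt1a with Cpt1b to 0.992 for Crat with Crot. The genes tested that were most like Cpt1a were Fbxo21 (0.981), Creb3l3 (0.98), Tpst2 (0.977), Slc22a5 (0.976) and Hsdl2 (0.976). Those most like Cpt1b were Acat1 (0.986), an enzyme of ketone body metabolism, Tysnd1 (0.984), a peroxisomal protease, Pex16 (0.983), a peroxisome assembly factor, Abhd1 (0.981) and Acot12 (0.98), a thioesterase. These 5 changed by 1.58 to 3.41 at 72 h and 1 µM and by 0.84 to 1.38 at 6 h.

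The pathway that the shuttle feeds rose as well. Of 16 genes of mitochondrial β-oxidation on a fixed list, 0, 9, 14, 16 and 16 were called higher at 2, 6, 12, 24 and 72 h at 1 µM and none lower, beside 0.351%, 1.73%, 3.96%, 7.06% and 11.3% of all genes. With the rat as a term the counts were 2, 12, 15, 16 and 16, beside 0.746%, 2.95%, 7.02%, 11.4% and 16.3% of all genes. The median change of the 16 listed genes was 0.15, 0.44, 0.85, 1.21 and 1.28 (log2), beside medians of all genes between -0.23 and 0.01. At 24 h Hadha, a subunit of the trifunctional protein, changed by 1.501 (limma adjusted p = 6.6e-22), and the very-long-chain dehydrogenase Acadvl by 1.33 (7.56e-19). Medium-chain dehydrogenase Acadm changed by 1.91 (1.81e-15), the isomerases Ech1 and Eci1 by 1.52 and 1.26, and the thiolase Acaa2 by 1.41.

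Genes that supply acyl-CoA to the shuttle rose in part. Of 6 tested, 0, 2, 4, 4 and 4 were called higher at the 5 times, and 1, 3, 4, 4 and 4 with the rat as a term. The percentages of all genes in each model were those given for β-oxidation. The acyl-CoA synthetases Acsl1 and Acsl3 changed by 1.87 and 1.71 at 24 h, Acsl5 by 0.76 and the transporter Slc27a2 by 0.51, whereas Acsl4 fell by 0.55 (limma adjusted p = 0.00136). Slc27a5 changed by -0.48 (SE 1.31) and was not called (adjusted p = 0.798), but was called lower with the rat as a term (0.0104), as at 72 h (-2.03, adjusted p = 0.226 and 1.08e-09 with the rat).

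Among the genes that set malonyl-CoA, the inhibitor of CPT1, Mlycd was the 1 of 8 tested that was called higher. Of all genes, 0.351% were called higher at 2 h, 7.06% at 24 h and 11.3% at 72 h, and 1 of 8 is near the last share. Mlycd encodes malonyl-CoA decarboxylase, which removes malonyl-CoA. It was called higher at each of the 5 times, by 0.82, 1.30, 1.72, 1.93 and 1.98 (limma adjusted p at 2 h 0.00186). The carboxylase Acaca, which makes malonyl-CoA, changed by -0.36 at 24 h (adjusted p = 0.102, and 0.0336 with the rat as a term), and Acacb did not pass the filter. Of the 6 subunits of AMP-activated kinase tested, 3 were called lower at 24 h, with -1.15 for Prkab1, -0.58 for Prkag2 and -0.35 for Prkag1, at a time when 22.6% of all genes were called lower. The genes called lower at 24 h numbered 1995, and 716 without the 5 arrays of low signal, whose part in these 3 calls was not tested. The first was also called at 72 h (-0.60, limma adjusted p = 0.0238).

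None of 4 carnitine synthesis genes passed at any time, beside 0.351% to 11.3% of all genes called higher and 0.0226% to 22.6% called lower at the 5 times. At 24 h the changes were -0.27 for Tmlhe, -0.07 for Aldh9a1, 0.29 for Bbox1 and -0.34 for Shmt1, with limma adjusted p between 0.153 and 0.543, and Bbox1, the last enzyme of the route, passed at 24 and 72 h with the rat as a term (0.0277 and 0.0166). The related transporter Slc22a4 changed by -0.08 (adjusted p = 0.733), beside 2.22 for Slc22a5. Of the peroxisomal list the 3 genes tested were called higher from 6 h on, beside 1.73% of all genes at 6 h and 11.3% at 72 h. At 24 h Ehhadh changed by 4.33, the fatty acyl transporter Abcd3 by 1.14 and Hsd17b4 by 0.81. Ppara itself, at or under log2 5 in most arrays and above it in 21, was called higher at 72 h (0.63, adjusted p = 0.0127), as was the coactivator Ppargc1b (0.67, 0.00427), which at 12 h passed with the rat as a term (0.63, 0.0515 and 0.0193). Ppargc1a was called lower at 24 h (-1.28, 0.00783) and 72 h (-1.17, 0.00752). Over all genes 22.6% were called lower at 24 h, and 15.5% lower and 11.3% higher at 72 h. The part of the low-signal arrays in the 24 h call was not tested.

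**Figure D5:**
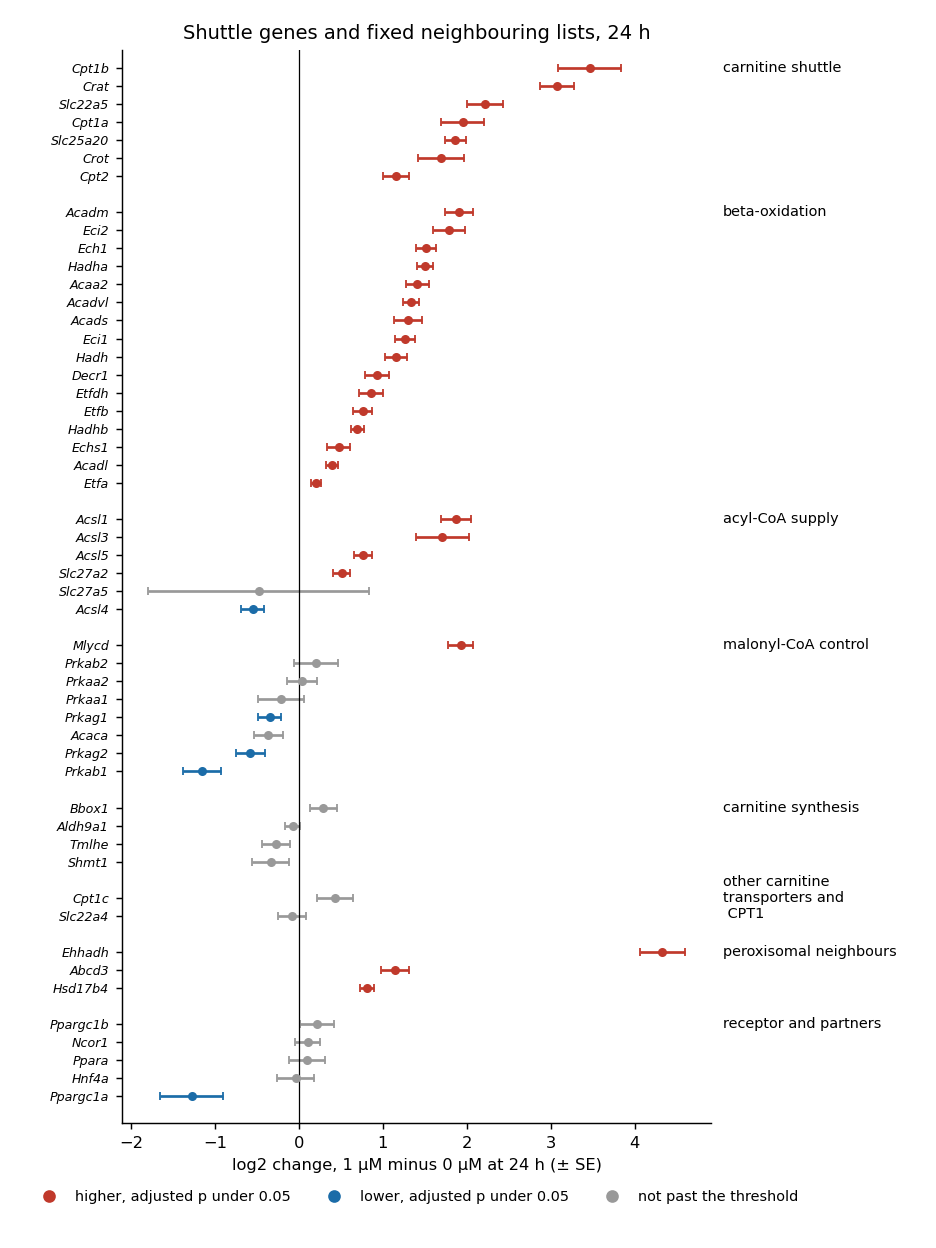
Log2 change at 1 µM from 0 µM at 24 h (horizontal axis, with the SE of the limma model) for the 7 shuttle genes and the tested members of each fixed list. Red points were called higher, blue lower and grey neither. All 16 β-oxidation genes lie to the right of 0, between 0.21 and 1.91, and the 4 carnitine synthesis genes between -0.34 and 0.29.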

How the data were processed

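Total RNA was hybridised to Affymetrix arrays of 31139 probe sets. The authors deposited log2 intensities, with scale and normalization not described in the files. Per the submitters' processing notes, GCRMA and Partek were used, with no role or version given. Symbols came from the platform annotation, with 19069 probe sets of a single symbol (18989 with a gene ID found in RefSeq), 572 of several and 11498 of none. Each gene was represented by the probe set with the highest mean. Genes above log2 5 in at least 3 arrays were tested. Folds are on the deposited log2 scale, and a fold from a level near the floor may be understated.

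A model with 30 group means was fitted to 100 arrays with limma 3.58.1 in R 4.3.3 (70 residual degrees of freedom, two-sided, Benjamini-Hochberg over 8843 genes per comparison, threshold 0.05). The number of arrays limits the precision. Cpt1b minus Cpt1a was tested by permutation with Python 3.11.15 and numpy 2.4.6 (100000 resamples within times, or exact). Figures used matplotlib 3.10.9. Tested on simulated data for 1 µM against 0 µM at 24 h, over 8843 genes, the model recovered 36% of added log2 changes of 0.5, 70% of 1 and 94% of 2, and 6.08% of its calls were false. The simulated noise was independent between arrays, with no rat effect, and only 200 genes were changed. Real arrays of a rat deviate together, so these rates check the code and need not hold for the data.

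Rats pair the arrays, per the labels. For 95 of 100 arrays the most correlated other array came from the same animal. The rat as a term is an alternative, printed beside the results whose call it changes. Other alternatives left out rats or groups of arrays, or changed the filter, scaling, probe set rule, prior and arrays fitted. Array positions repeat for 23 arrays, and no plate is named.

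The 7 members and all gene lists were chosen with earlier results of these data known. Named are the 7 members, up to 6 members by p at 24 h and 1 µM of each fixed list (all of a list of 5 or fewer), marker genes, and the 5 genes most like each of Cpt1a and Cpt1b.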

Additional observations from a re-analysis of the deposited data

Results flagged for a closer look

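In 5 of the 84 groups of 4 arrays and member examined, a single array lay far from the other 3, which chance gives in about 1 in 20 groups. Cpt1b at 0 µM and 6 h was highest in Rs627 at 7.219 (others 6.472 to 6.568). Cpt2 at 0 µM and 72 h was lowest in Rs628 at 9.023 (others 9.793 to 9.864). Slc25a20 at 1 µM and 24 h was highest in Rs632 at 11.09 (others 10.94 to 10.96). Crat at 10 µM and 2 h was highest in Rs627 at 8.571 (others 8.001 to 8.032). Slc22a5 at 0.1 µM and 2 h was lowest in Rs631 at 6.897 (others 8.239 to 8.38), which is an array of low signal. Without the low-signal arrays, this Slc22a5 change was 0.913 and was called (limma adjusted p = 0.00739).

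The change at 1 µM differed between 24 and 2 h by the test of that difference for 4 members, by 2.622 for Cpt1b, 1.55 for Slc25a20, 1.976 for Crat and 1.15 for Slc22a5 (limma adjusted p 0.00105, 7.19e-09, 2.69e-06 and 0.0147).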

How the results depend on the processing

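All 21 calls at 1 µM from 12 h on held under each alternative run, no called change reversed, and none moved by over 1.5 times. No alternative took another probe set alone, since the sets were averaged or the set of highest mean was kept. The second set of Crot changed by 3.03 (log2) at 24 h and 1 µM, against 1.69 for the set used. The counts that moved by more than 1.5 times concern the lowest active concentration, the earliest time and the steps. Of the 35 comparisons at 0.01 µM, 3 were called. With the rat as a block there were 9, and 7 without the 2 untreated 12 h arrays that went against their labels (added after seeing the data). There was 1 without the arrays whose label ends in 2, with no filter, with the mean of probe sets and with only arrays of the time compared, and leaving out a rat gave 0 to 1. Of the 35 at 2 h, 4 were called, with 15 under the block (also 15 without those 2 arrays), 7 without low-signal arrays, 7 with quantile normalization, 0 with only arrays of 2 h and 1 to 5 leaving out a rat. The step from 0.001 to 0.01 µM had 5 calls, 3 without arrays at repeated positions and 1 to 5 leaving out a rat. The step from 0.1 to 1 µM had 4, with 7 under the block (7 also without those 2 arrays) and 2 to 5 leaving out a rat. The growth from 2 to 24 h had 4, with 7 under the block (7 also without those 2 arrays) and 2 to 5 leaving out a rat. The Cpt1b minus Cpt1a shift at 0.01 µM ranged from 0.061 to 0.313 leaving out a rat and passed without Rs628 (permutation adjusted p = 0.0492). With labels permuted within pairs of the same rat by label, the shifts at 0.1, 1 and 10 µM were 1.014, 1.131 and 1.019 and passed (permutation adjusted p 0.0171, 0.00214 and 0.0171). Each rat at each time counted as a separate pair, so these p values do not measure the spread between rats. The 12 h pairs of Rs627 and Rs628 used the untreated arrays that went against their labels. Their shifts were 1.73 and 0.62 at 1 µM, and 0.37 in Rs628 at 10 µM. The block changed no call from 24 h on at 0.1 µM or more. Over all genes at 1 µM and 24 h, 624 were called higher and 1995 lower, against 907 and 1391 with quantile normalization, 1009 and 3396 with the rat as a block and 585 and 716 without the low-signal arrays. The cause of these differences was not tested.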
